A study of Canis lupus familiaris with 31 samples.

Results

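Sialyltransferases are the Golgi enzymes that cap the sugar chains of glycoproteins and glycolipids with sialic acid. Expression of 10 of their genes was described in whole blood of 31 Miniature Schnauzers, 13 cases with high fasting triglycerides (HTG) and 18 controls. The genes were found by symbol among the 32704 rows of the count table: ST6GALNAC3, ST6GALNAC4, ST6GALNAC6, ST6GAL1, ST3GAL1, ST3GAL2, ST3GAL4, ST3GAL5, ST3GAL6 and ST8SIA4. All dogs were pets of 1 breed that were fasted before sampling, none was given an experimental treatment, and diet and exercise were not standardized. The labels give no ages, and the study recruited older adult dogs, nearly all neutered. The cases were 8 males and 5 females and the controls 10 males and 8 females. Each dog gave 1 library, and the p-values below refer to the spread between dogs.

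Each enzyme name gives the carbon of the acceptor sugar to which sialic acid is joined and the kind of acceptor. ST3GAL and ST6GAL enzymes cap galactose, ST6GALNAC enzymes act on the N-acetylgalactosamine of O-linked chains and gangliosides, and ST8SIA enzymes join sialic acids to one another. In blood, sialic acid is known to mask galactose from clearance receptors on aging platelets and plasma proteins, to form part of the selectin ligands of leukocytes, and to engage the Siglec receptors of myeloid and B cells.

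Total counts per library were 16363134 to 34312116 in the cases and 14524659 to 41533599 in the controls. Levels are given as CPM, counts scaled to a common library size after TMM normalization, and were compared between groups within a gene only, since the table gives no gene lengths. A gene was called at an adjusted p of at most 0.05 in edgeR's quasi-likelihood test across 13918 genes. Of the 8 marker lists (platelets, neutrophils, monocytes, T cells, B cells, cytotoxic cells, erythroid cells, eosinophils and basophils), 7 to 10 genes each passed the filter and each of these had counts in all dogs. PF4, CD14 and CD4 were among the defining markers with no row of that symbol. Control_03 stood apart from the other controls. Its total was the smallest of all dogs, and its platelet marker score of 1.08 and its erythroid score of 2.68 were the highest (mean log2 CPM of the list, centred over the dogs), with case_01 level with it at 2.68 on the erythroid score. The dogs also fell into 10 with high and 21 with low counts on rows for small non-coding RNAs, with scores of at least 1.81 and at most 1.46 log2 CPM. The high side held 5 cases and 5 controls, control_03 among them. The study prepared part of its libraries earlier as a pilot, and the labels do not name those dogs, so no batch term was fitted. That pilot held as many cases and controls as the high side, a cut set here at 10 dogs, and whether they are the same dogs was not tested. A term for the small RNA split was fitted as an alternative. Because the RNA came from whole blood, fewer cells of a type and less RNA per cell cannot be told apart.

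Of the 10 genes, 9 passed the filter on low counts, with counts in all 31 dogs. ST6GALNAC3, which acts on gangliosides and O-linked chains, had counts in 3 of 31 dogs and at most 3 counts in any dog (case_12), and was not tested. None of the 9 genes tested was called between cases and controls in edgeR, where 0.0359% of all genes tested were called (5 of 13918). A pair of genes of the same family, ST6GALNAC4 and ST6GALNAC6, were higher in cases at an unadjusted p under 0.05, and 0 of the 9 were lower. Over all genes tested, 5.04% were higher at that p and 4.76% lower. The median log2 fold change of the 9 genes was -0.02, as was the median over all genes. DESeq2 called 1 of them, ST6GALNAC4, against 0.563% of the genes it adjusted, and limma-voom called 0.

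ST6GALNAC4 (ENSCAFG00000020101) adds a second sialic acid to O-linked core chains that already carry one, which gives the disialyl-T structure. In the controls its level was lowest in control_17 at 32.1 CPM, had a median of 54.9 CPM and was highest in control_03 at 93.0 CPM. In the cases the lowest level was 64.6 CPM in case_02, the median 81.3 CPM and the highest 138 CPM in case_09. These values rest on 711 to 2990 counts per dog. All 13 cases lay above the control median, 6 lay above the highest control, and 12 of 18 controls lay below the lowest case, so the groups overlapped between 64.6 and 93.0 CPM. The means were 93.3 ± 24.8 CPM (SD, n = 13) in cases and 57.5 ± 18.4 CPM (SD, n = 18) in controls. The difference was a log2 fold change of 0.70 (SE 0.15), or 1.62-fold with a 95% confidence interval of 1.32 to 2.00, with p = 4.54e-05 and adjusted p = 0.0741 in edgeR. By p it was in place 8 of the 13918 genes.

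The call for ST6GALNAC4 changed with the fit. It passed in DESeq2 (adjusted p = 0.00892), in DESeq2 with a term for the small RNA split (0.00137) and in edgeR with that term (0.0402). It did not pass in limma-voom (adjusted p = 0.0829) or in edgeR among the dogs of the low side alone (0.182), those of the high side alone (0.9996) or with the dog number as a block (0.615). With a term for the platelet score it did not pass either (adjusted p = 0.731), and the log2 fold change fell to 0.35. Over the 31 fits that each left out 1 dog, the log2 fold change stayed between 0.64 and 0.75. In 4 of these fits the gene was called: without case_08 (edgeR adjusted p = 0.0495), case_12 (0.0397), control_02 (0.0311) or control_03 (0.0230). The difference was similar on both sides of the small RNA split, with log2 fold changes of 0.61 (SE 0.19) among the 10 dogs of the high side and 0.66 (SE 0.15) among the 21 dogs of the low side.

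**Figure D1:**
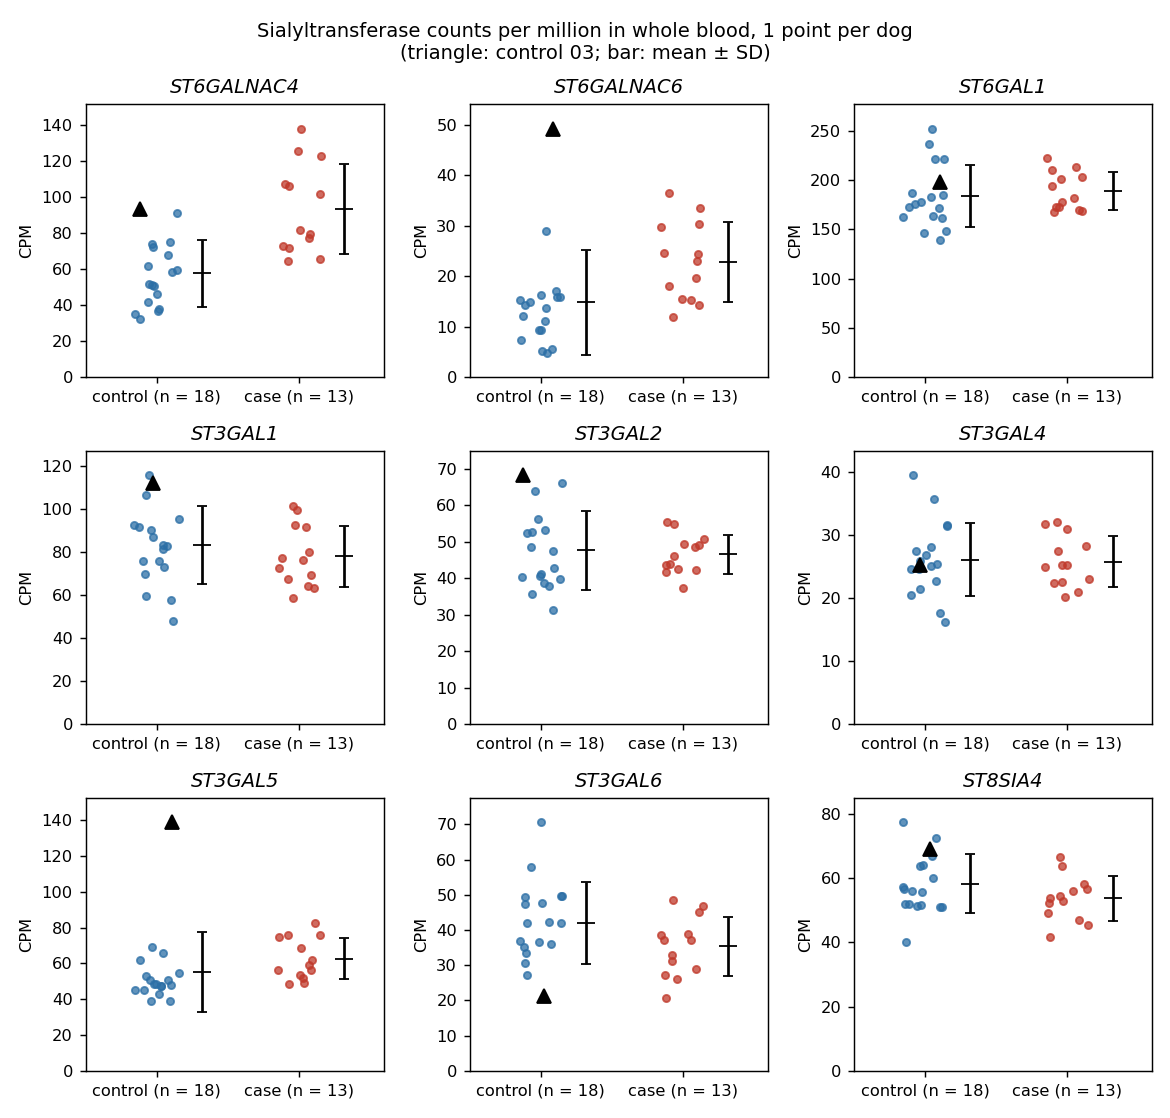
CPM of the 9 tested sialyltransferases, 1 point per dog, in 18 controls and 13 cases, with bars for the mean ± SD. ST6GALNAC4 is the gene in which 6 cases lie above every control, and control_03 (triangle) is the highest control for ST6GALNAC4, ST6GALNAC6, ST3GAL2 and ST3GAL5.

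ST6GALNAC6 (ENSCAFG00000031177) sialylates gangliosides and is known for making the disialyl Lewis a structure. Control levels ran from 4.85 CPM in control_10 over a median of 14.0 CPM to 49.3 CPM in control_03. Case levels ran from 11.9 CPM in case_12 over a median of 23.0 CPM to 36.6 CPM in case_06. The highest dog was thus a control, and the next highest control, control_02, had 29.0 CPM. Of the 13 cases, 12 lay above the control median and 4 above every control other than control_03. The means were 22.8 ± 7.91 CPM (SD, n = 13) and 14.8 ± 10.3 CPM (SD, n = 18), a log2 fold change of 0.64 (SE 0.25, edgeR p = 0.0164, adjusted p = 0.363). Without control_03 the control mean was 12.8 ± 5.89 CPM (SD, n = 17) and the log2 fold change 0.83 (SE 0.21), which passed the threshold with an edgeR adjusted p of 0.0480. Without both case_01 and control_03 it was again 0.83 (SE 0.22) and did not pass (edgeR adjusted p = 0.0944). In the fit that left out control_03 only, 2 of the 9 sialyltransferases were called, both of the ST6GALNAC family, against 1.11% of all genes. Among the dogs of the high side the log2 fold change was 0.20 (SE 0.31), and among those of the low side 0.83 (SE 0.23); a difference between the sides was not tested.

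ST6GALNAC4 and ST6GALNAC6 are direct neighbours in the RefSeq annotation of the dog assembly UU_Cfam_GSD_1.0, which is another build than the study's and was used for gene order only. The next gene beyond ST6GALNAC6 is AK1, an adenylate kinase, which had a log2 fold change of 0.83 (SE 0.26, edgeR adjusted p = 0.246). Beyond it lies ENG, the endoglin gene, with a log2 fold change of -0.16 (SE 0.15). On the other side of ST6GALNAC4, PIP5KL1 did not pass the filter and DPM2 had a log2 fold change of 0.15 (SE 0.14). AK1 and its neighbours were looked up after the values of the pair had been seen.

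ST6GAL1 (ENSCAFG00000013698) caps the N-linked chains of plasma and cell surface proteins, including the chains recognized by the B cell lectin CD22. It was at 168 to 223 CPM in the cases, with a median of 182 CPM, and at 139 to 253 CPM in the controls, with a median of 177 CPM. The case range lay inside the control range. The log2 fold change was 0.04 (SE 0.08, edgeR adjusted p = 0.905), with a 95% confidence interval of -0.12 to 0.20. Among the cases ST6GAL1 varied least of the 9 genes, with a coefficient of variation of 10.3%, against a median of 22.8% over all genes tested.

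Of the ST3GAL enzymes, ST3GAL1 and ST3GAL2 act on the galactose of O-linked core chains, and ST3GAL2 also makes gangliosides. ST3GAL1 (ENSCAFG00000001148) was at 77.9 ± 14.2 CPM (SD, n = 13) in cases and 83.1 ± 18.2 CPM (SD, n = 18) in controls. Its cases ran from 58.4 CPM in case_13 to 101 CPM in case_06 and its controls from 47.8 CPM in control_10 to 115 CPM in control_13. The case range lay inside the control range, and the log2 fold change was -0.09 (SE 0.11, edgeR adjusted p = 0.823, 95% confidence interval -0.31 to 0.12). ST3GAL2 (ENSCAFG00000020139) was at 46.6 ± 5.33 CPM (SD, n = 13) in cases and 47.6 ± 10.8 CPM (SD, n = 18) in controls, with a log2 fold change of -0.03 (SE 0.10, 95% confidence interval -0.23 to 0.17). Its controls reached from 31.2 to 68.2 CPM, the highest in control_03, and its cases from 37.3 to 55.3 CPM.

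ST3GAL4 and ST3GAL6 cap N-linked and O-linked chains and help to build the selectin ligands of leukocytes. ST3GAL4 (ENSCAFG00000010386) had the smallest difference of the 9, at 25.8 ± 4.05 CPM (SD, n = 13) in cases and 26.1 ± 5.84 CPM (SD, n = 18) in controls. Its log2 fold change was -0.02 (SE 0.10, edgeR adjusted p = 0.969), with a 95% confidence interval of -0.23 to 0.19. ST3GAL6 (ENSCAFG00000009190) was at 20.7 to 48.4 CPM in the cases and 21.3 to 70.6 CPM in the controls, with medians of 37.1 and 42.0 CPM. Only 3 of 13 cases lay above its control median. The log2 fold change of ST3GAL6 was -0.25 (SE 0.13, edgeR p = 0.0726, adjusted p = 0.563). Control_03, the highest control for 4 other sialyltransferases, was the lowest control for ST3GAL6. Without it the value was -0.29 (SE 0.12, edgeR p = 0.0247, adjusted p = 0.222).

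ST3GAL5 (ENSCAFG00000007653) makes GM3, the first ganglioside of the pathway. Its controls ran from 38.9 CPM in control_11 over a median of 48.4 CPM to 139 CPM in control_03, and without that dog the highest control was control_16 at 69.2 CPM. Its cases ran from 48.3 CPM in case_04 over a median of 59.3 CPM to 82.3 CPM in case_01. Of the 13 cases, 12 lay above the control median. The log2 fold change was 0.18 (SE 0.14, edgeR p = 0.194, adjusted p = 0.698). Leaving out control_03 moved it to 0.31 (SE 0.09) with an edgeR adjusted p of 0.0690, and ST3GAL5 was then the third of the 9 genes with a higher level in cases at an unadjusted p under 0.05, against 9.33% of all genes.

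ST8SIA4 (ENSCAFG00000007617) builds polysialic acid, the long chains known from NCAM1, NRP2 and CCR7. It was at 53.7 ± 6.97 CPM (SD, n = 13) in cases and 58.3 ± 9.26 CPM (SD, n = 18) in controls. Its case range of 41.7 to 66.6 CPM lay inside its control range of 40.1 to 77.4 CPM. The log2 fold change was -0.12 (SE 0.08, edgeR adjusted p = 0.648), with a 95% confidence interval of -0.28 to 0.04.

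Neither sex nor the interplay of sex and group gave a call among the sialyltransferases. In edgeR, 0.122% of all genes differed between females and males (17 of 13918, and 680 at an unadjusted p under 0.05), and 0 of the 9 sialyltransferases did. The interaction of sex and group was called for 0% of the genes tested, with 547 genes at an unadjusted p under 0.05. ST6GALNAC4 had a log2 fold change of 0.63 (SE 0.22) between 5 female cases and 8 female controls and of 0.75 (SE 0.20) between 8 male cases and 10 male controls. The same values for ST6GALNAC6 were 0.66 (SE 0.34) in females and 0.62 (SE 0.34) in males.

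Platelet markers moved with both ST6GALNAC genes. All 8 platelet markers tested had log2 fold changes above 0, with a median of 0.61, 6 of them at an unadjusted p under 0.05 and none called. Over all genes tested, 45.5% were above 0 and 5.04% higher at that p. The summed level of the platelet markers was 849 to 3923 CPM in cases (median 2351) and 581 to 4447 CPM in controls (median 2171). PPBP had the highest level of these markers, at 1907 ± 678 CPM (SD, n = 13) in cases and 1736 ± 756 CPM (SD, n = 18) in controls. Its log2 fold change was 0.14 (SE 0.23, edgeR p = 0.556). Over the 31 dogs, ST6GALNAC4 correlated with the platelet marker score, both centred on group means, with r = 0.768 (permutation test, adjusted p = 0.00024 over 72 pairs of a gene and a score) and rho = 0.723 (adjusted p = 0.000576). The relation was present in the cases (r = 0.809) and the controls (r = 0.748), on the high side (0.626) and the low side (0.695) of the small RNA split, and without the 2 dogs farthest out on the platelet score, control_03 and control_17 (r = 0.689). ST6GALNAC6 gave r = 0.755 (permutation test, adjusted p = 0.00024) and rho = 0.706 (adjusted p = 0.00054), and r = 0.631 without those 2 dogs. Neither gene passed for any of the other 7 scores.

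With a term for the platelet score in edgeR, the log2 fold change of ST6GALNAC4 was 0.35 (SE 0.11, p = 0.00332, adjusted p = 0.731) and that of ST6GALNAC6 0.17 (SE 0.17, adjusted p = 0.909). ST3GAL1 and ST8SIA4 were then at -0.25 (SE 0.10, edgeR adjusted p = 0.779) and -0.19 (SE 0.08, edgeR adjusted p = 0.789), the 2 of the 9 genes that were lower in cases at an unadjusted p under 0.05 in this fit. The covariate took ST3GAL5 to -0.06 (SE 0.11) and left the median platelet marker at 0.05. In the same fit 0 of 13918 genes were called, and 865 had an unadjusted p under 0.05, 427 of them higher and 438 lower. Both ST6GALNAC genes were also higher on the high side of the small RNA split than on the low side, adjusted for group. The log2 difference was 0.52 (SE 0.13, edgeR adjusted p = 0.00768) for ST6GALNAC4 and 0.94 (SE 0.20, edgeR adjusted p = 0.00216) for ST6GALNAC6. No other sialyltransferase was called there, so that 2 of 9 were called against 7.57% of all genes. The part of platelet RNA and of the split in the case and control difference was not tested beyond these fits.

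**Figure D2:**
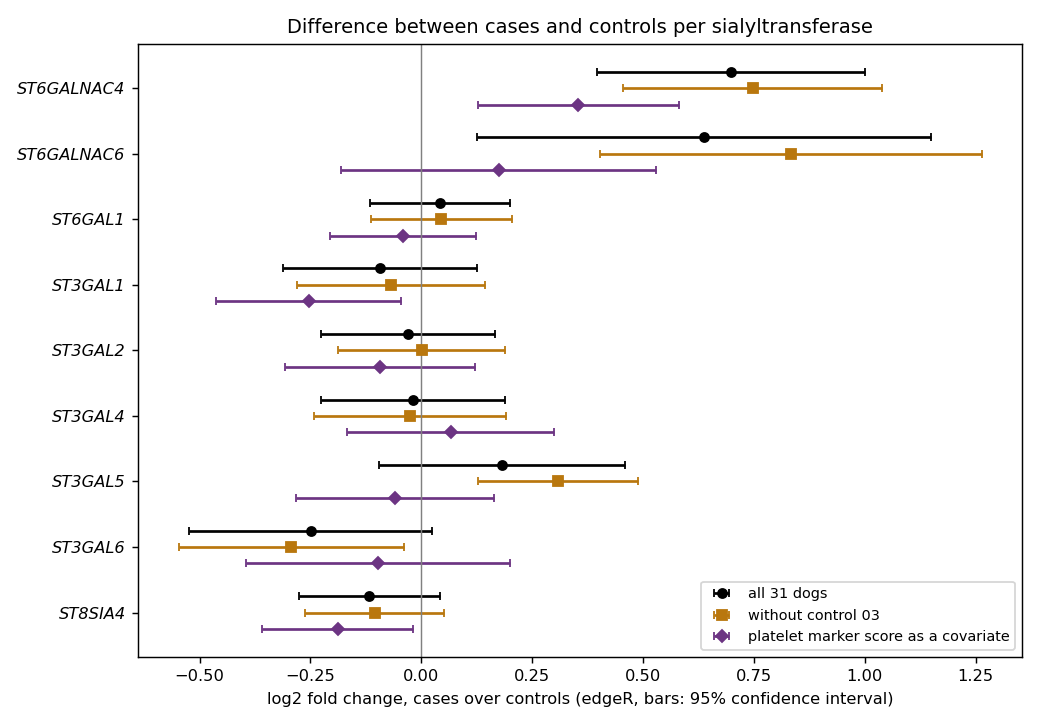
Log2 fold changes of cases over controls for the 9 tested sialyltransferases, with 95% confidence intervals, in all 31 dogs (circles), without control_03 (squares) and with a term for the platelet score (diamonds). ST6GALNAC4 stays above 0 in all 3 fits, at 0.70, 0.75 and 0.35, while the interval of ST6GALNAC6 includes 0 with the covariate.

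Most of the other sialyltransferases passed for several marker scores, some of them shared. In all, 22 of 72 pairs passed by Pearson's r at an adjusted p of at most 0.05, 24 by Spearman's rho and 21 by both. ST3GAL5 had its closest relation with the erythroid score (r = 0.805, rho = 0.756, adjusted p = 0.00024 for both, permutation test), with r = 0.691 without case_01 and control_03, the 2 dogs farthest out. ST3GAL2 (r = 0.533), ST6GAL1 (0.511), ST3GAL1 (0.457) and ST8SIA4 (0.444) rose with the erythroid score too (permutation test, adjusted p = 0.01, 0.0161, 0.04 and 0.0481), the last of these not by rho (adjusted p = 0.0516). ST3GAL5 also rose with the platelet score (r = 0.653, adjusted p = 0.00108, and rho = 0.524, adjusted p = 0.0119, permutation test). ST3GAL1 rose with the platelet score as well (r = 0.548, adjusted p = 0.0094, rho = 0.55, adjusted p = 0.00881, permutation test). All 8 erythroid markers tested had log2 fold changes above 0 between cases and controls, with a median of 0.63 and none at an unadjusted p under 0.05, whereas all 8 reached that p without control_03 (9.33% of all genes were higher at that p in this fit) and 3 of 8 without both case_01 and control_03. Their part in the ST3GAL5 difference was not tested.

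ST3GAL2 followed the neutrophil score, with r = 0.775 and rho = 0.804 (adjusted p = 0.00024 for both, permutation test) and r = 0.794 without control_09 and control_12. The relation was closer in controls (r = 0.828) than in cases (r = 0.518), a difference that was not tested. Of the 9 genes, ST3GAL6 alone rose with the T cell score, at r = 0.715 (adjusted p = 0.000411) and rho = 0.682 (adjusted p = 0.00108, permutation test), and at r = 0.683 without case_06 and control_09. It fell with the erythroid score, at r = -0.747 and rho = -0.770 (adjusted p = 0.00024 for both, permutation test), and at r = -0.692 without case_01 and control_03. Further relations of ST3GAL6 were with the neutrophil score (r = -0.590, adjusted p = 0.00504, permutation test) and the cytotoxic cell score (r = 0.548, adjusted p = 0.0094, permutation test). None of the 10 T cell markers had a log2 fold change above 0, with a median of -0.19 and 2 at an unadjusted p under 0.05 (4.76% of all genes were lower at that p). Their summed level was 362 to 905 CPM in cases and 448 to 1073 CPM in controls, and their part in the ST3GAL6 value was not tested.

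ST8SIA4, ST6GAL1, ST3GAL1, ST3GAL2 and ST3GAL5 all ran against the T cell score. Their r lay between -0.701 for ST8SIA4 and -0.544 for ST3GAL1, and each of the 5 passed by r and by rho (permutation test, highest adjusted p = 0.0094 and 0.00445). ST8SIA4 also rose with the neutrophil score (r = 0.456, adjusted p = 0.0481, permutation test). So it did with the eosinophil and basophil score (r = 0.47, adjusted p = 0.0311, permutation test). ST3GAL2 fell with the cytotoxic cell score (r = -0.586, adjusted p = 0.0094, permutation test). Each of these pairs passed by rho too (permutation test, highest adjusted p = 0.0412). ST3GAL4 passed for none of the 8 scores. Its r farthest from 0 was -0.292, both with the platelet score (rho = -0.328, permutation test, adjusted p = 0.219 and 0.168) and with the monocyte score (rho = -0.266, permutation test, adjusted p = 0.222 and 0.279).

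**Figure D3:**
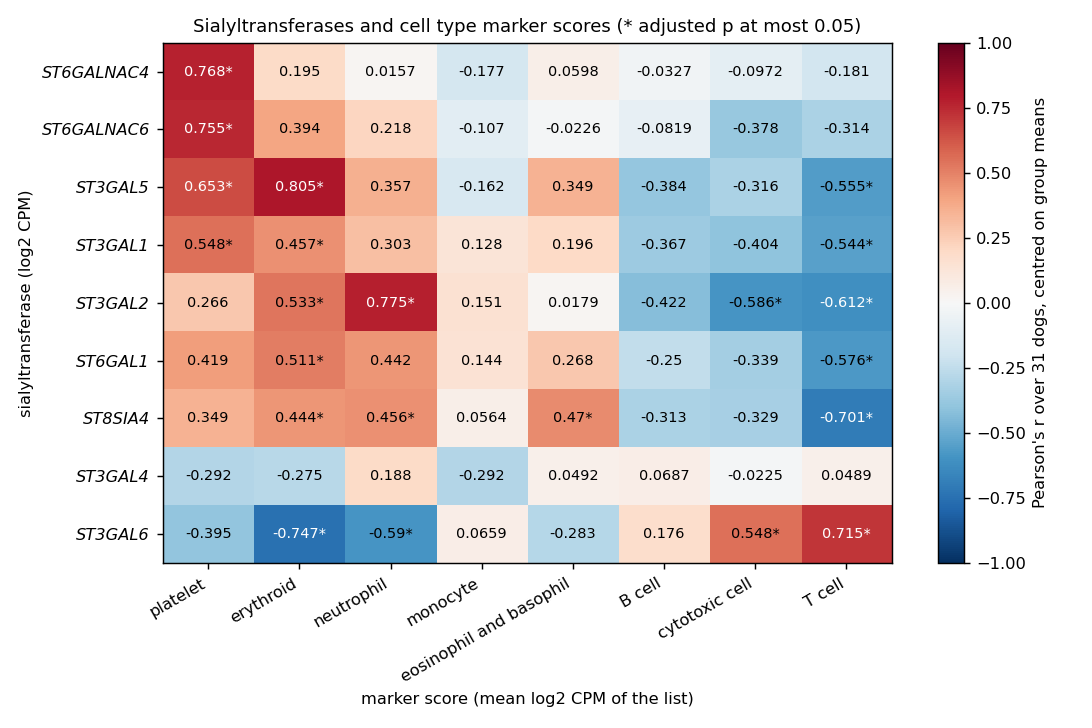
Pearson's r of each tested sialyltransferase (log2 CPM) with each of 8 cell type marker scores over 31 dogs, both centred on group means, with a star where the adjusted p is at most 0.05. The ST6GALNAC genes pass for the platelet score alone, ST3GAL6 is positive for the T cell score (0.715) and negative for the erythroid score (-0.747), and ST3GAL4 passes for none.

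**Figure D4:**
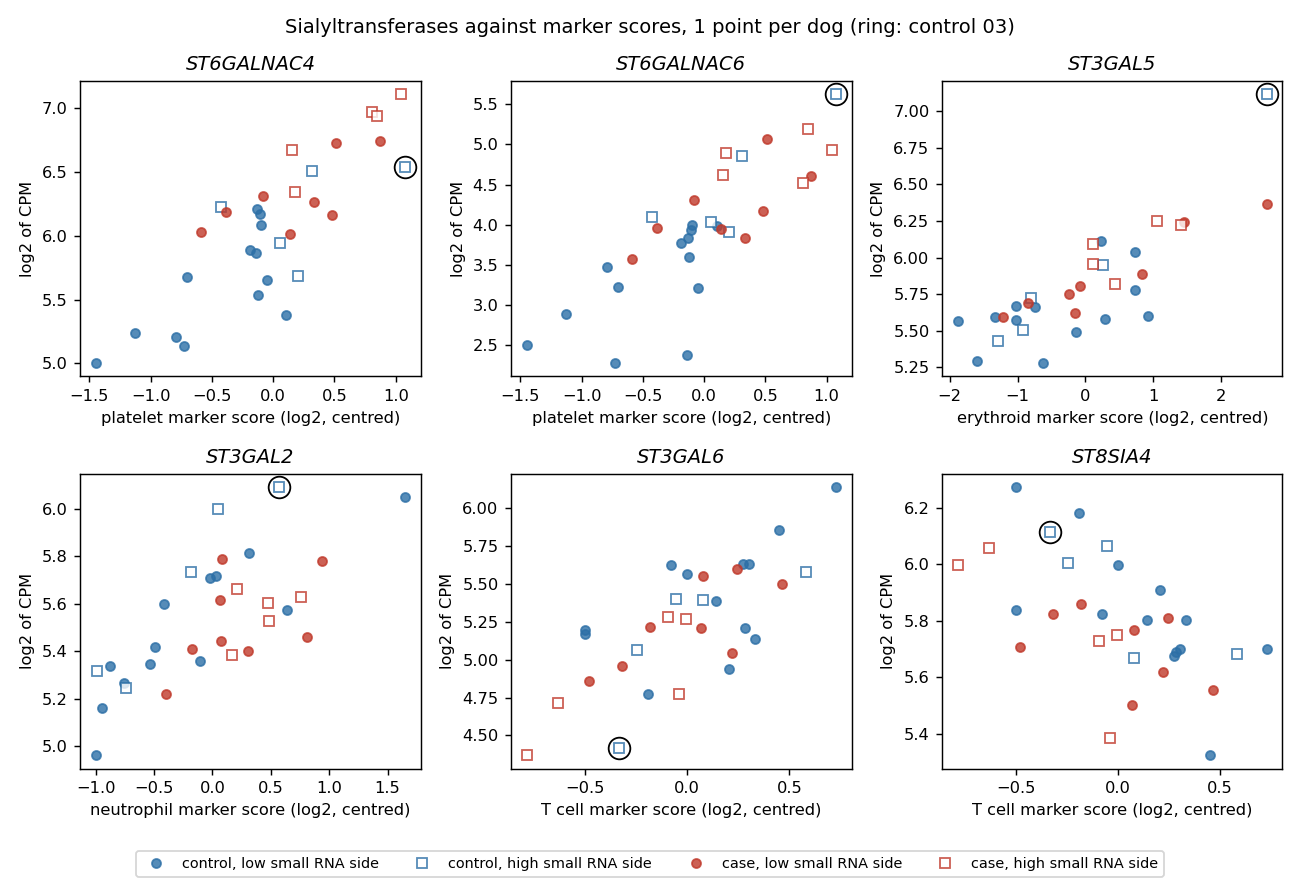
Log2 CPM of 6 sialyltransferases against a marker score, 1 point per dog, coloured by group and open for the 10 dogs of the high side of the small RNA split. ST6GALNAC4 and ST6GALNAC6 rise along the platelet score in both groups (r = 0.809 and 0.692 in cases, 0.748 and 0.791 in controls), and control_03 (ring) is the highest dog for ST6GALNAC6, ST3GAL2 and ST3GAL5.

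Among themselves the 9 genes formed 36 pairs, of which 23 passed by r and 17 by both r and rho. ST6GALNAC4 and ST6GALNAC6 were the closest pair in all 31 dogs (r = 0.770, rho = 0.764, permutation test, adjusted p = 0.00012 for both). Without control_03 their r was 0.740, and that of ST3GAL1 and ST8SIA4 was higher at 0.746. With values centred within the sides of the small RNA split as well, these were 0.642 and 0.773. ST8SIA4 rose with ST3GAL1 (r = 0.762, rho = 0.744) and with ST6GAL1 (r = 0.742, rho = 0.729), and ST6GAL1 with ST3GAL1 (r = 0.698, rho = 0.746). ST3GAL6 ran against 6 of the other 8 genes by r, from -0.634 with ST3GAL5 to -0.454 with ST3GAL1. Values of 1 library share its depth and its mix of cells.

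The genes whose pattern over the 31 dogs was most like each sialyltransferase were taken by Pearson's r of log2 CPM centred on group means, as a description. For ST6GALNAC4 they were RBPMS2 (0.847), SAMM50 (0.829) and GP1BA (0.828), the platelet receptor subunit for von Willebrand factor. NRGN (0.855), ENSCAFG00000039072 (0.848) and TAGLN2 (0.844) were closest to ST6GALNAC6. ST3GAL5 was closest to STAU1 (0.935), SUCO (0.920) and AKAP10 (0.919), which were at 0.857, 0.847 and 0.823 without control_03. ST3GAL1 was closest to EIF4EBP1 (0.892), the neutrophil growth factor receptor CSF3R (0.884) and AMBRA1 (0.863), and ST3GAL2 to TBC1D2B (0.901) and WLS (0.898). With the neutrophil score itself ST3GAL1 did not pass (r = 0.303, adjusted p = 0.219, rho = 0.391, adjusted p = 0.0887, permutation test). ST3GAL6 was closest to RORA (0.865), a nuclear receptor of lymphocytes, then to INSRR (0.825) and SLC9A9 (0.822). SEC14L1 stood among the closest 3 of both ST6GAL1 (0.850, with FRY at 0.833 and SMAP2 at 0.822) and ST8SIA4 (0.886, after SLC6A6 at 0.896 and ABHD2 at 0.894). The lowest value was that of ST3GAL4, for which KIF21B reached 0.709, ENSCAFG00000011151 0.641 and ASB7 0.625.

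Of 10 further sialyltransferase genes, 9 had a row and 1 passed the filter. ST6GALNAC2, another enzyme of O-linked chains, was at 16.7 ± 4.12 CPM (SD, n = 13) in cases and 16.1 ± 5.51 CPM (SD, n = 18) in controls, with a log2 fold change of 0.05 (SE 0.15). The other 8 had at most 17 counts in any dog, and ST8SIA3 had 0 counts in all.

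The genes that make the sialic acid donor gave no difference past either threshold in all 31 dogs, with 5 tested, 1 of them above 0 and a median log2 fold change of -0.13. CMAS, which activates sialic acid to its CMP form, had the largest value at 0.56 (SE 0.33, edgeR p = 0.102). Its levels of 58.5 ± 49.7 CPM (SD, n = 13) and 39.9 ± 38.0 CPM (SD, n = 18) were widely spread. Without control_03 the value for CMAS was 0.89 (edgeR p = 0.00258), and with the platelet score as a covariate it was 0.06. NANS, which makes sialic acid phosphate, was at -0.13 (SE 0.08), the first enzyme GNE at -0.14 (SE 0.15) and the Golgi transporter SLC35A1 at -0.14 (SE 0.15).

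Of 5 tested genes that remove or modify sialic acid, 1 was higher at an unadjusted p under 0.05 (5.04% over all genes) and 0 lower, with a median log2 fold change of 0.17. That gene was SIAE, which removes acetyl groups from sialic acid, at 8.98 ± 2.07 CPM (SD, n = 13) in cases and 6.28 ± 1.71 CPM (SD, n = 18) in controls. Its log2 fold change was 0.52 (SE 0.14, edgeR adjusted p = 0.127). The sialidases NEU1 and NEU3 were at 0.07 (SE 0.06) and 0.19 (SE 0.21), and the acetyltransferase CASD1 at -0.12 (SE 0.10).

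Among 24 tested genes that build the chains on which sialyltransferases act, 3 were higher and 2 lower at an unadjusted p under 0.05, and the median log2 fold change was 0.02. These counts stand against 5.04% higher and 4.76% lower over all genes tested. MGAT4B, which adds a branch to N-linked chains, was at 114 ± 18.0 CPM (SD, n = 13) in cases and 86.0 ± 19.6 CPM (SD, n = 18) in controls, a log2 fold change of 0.40 (SE 0.11, edgeR adjusted p = 0.123). C1GALT1, which makes the core chain that ST3GAL1 and then ST6GALNAC4 extend, had 0.18 (SE 0.06, edgeR adjusted p = 0.297). MGAT3, which adds the bisecting sugar, had 0.66 (SE 0.24, and 1.09 with the platelet score as a covariate), and the galactosyltransferase B4GALT5 -0.15 (SE 0.07). The other lower gene was MGAT4A at -0.22 (SE 0.11), named after its value was seen.

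Of 8 tested lectins that bind sialylated or exposed galactose chains, 4 were higher at an unadjusted p under 0.05, 0 were lower, and all 8 were above 0 with a median log2 fold change of 0.32, against the same 5.04% and 45.5% of all genes. SELP, the P-selectin of platelets and endothelium, was at 224 ± 72.3 CPM (SD, n = 13) in cases and 152 ± 50.5 CPM (SD, n = 18) in controls, a log2 fold change of 0.56 (SE 0.17, edgeR adjusted p = 0.226). With the platelet score as a covariate the value for SELP was 0.13. SIGLEC1, the sialic acid receptor of macrophages, had 0.50 (SE 0.19) and the galectins LGALS1 and LGALS8 0.32 (SE 0.13) and 0.18 (SE 0.08). The median of the 8 was 0.13 with the platelet score as a covariate, and none then had an unadjusted p under 0.05.

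Of 11 tested carrier proteins, 1 was higher and 1 lower at an unadjusted p under 0.05, with a median log2 fold change of -0.000544, a share near the 5.04% higher and 4.76% lower over all genes. GP1BA, whose chains are among the sialylated ones of platelets, was at 109 ± 55.1 CPM (SD, n = 13) in cases and 62.3 ± 35.4 CPM (SD, n = 18) in controls, a log2 fold change of 0.80 (SE 0.27, edgeR adjusted p = 0.283), and of 0.16 with the platelet score as a covariate. NRP2 and CCR7, both carriers of polysialic acid, had -0.47 (SE 0.21) and -0.33 (SE 0.17), and LAMP1 had 0.14 (SE 0.07). No gene of these 6 lists was called in all 31 dogs. Without control_03, SIAE (edgeR adjusted p = 0.0492) and MGAT4B (0.0433) were called, as was the erythrocyte carrier GYPC (0.0307), named after its value was seen, in a fit that called 1.11% of all genes. Without both case_01 and control_03, 0 genes of these lists were called. With the platelet score as a covariate in all 31 dogs, the log2 fold changes were 0.25 for SIAE, 0.19 for MGAT4B and 0.07 for GYPC, against 0.52, 0.40 and 0.47 without it.

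**Figure D5:**
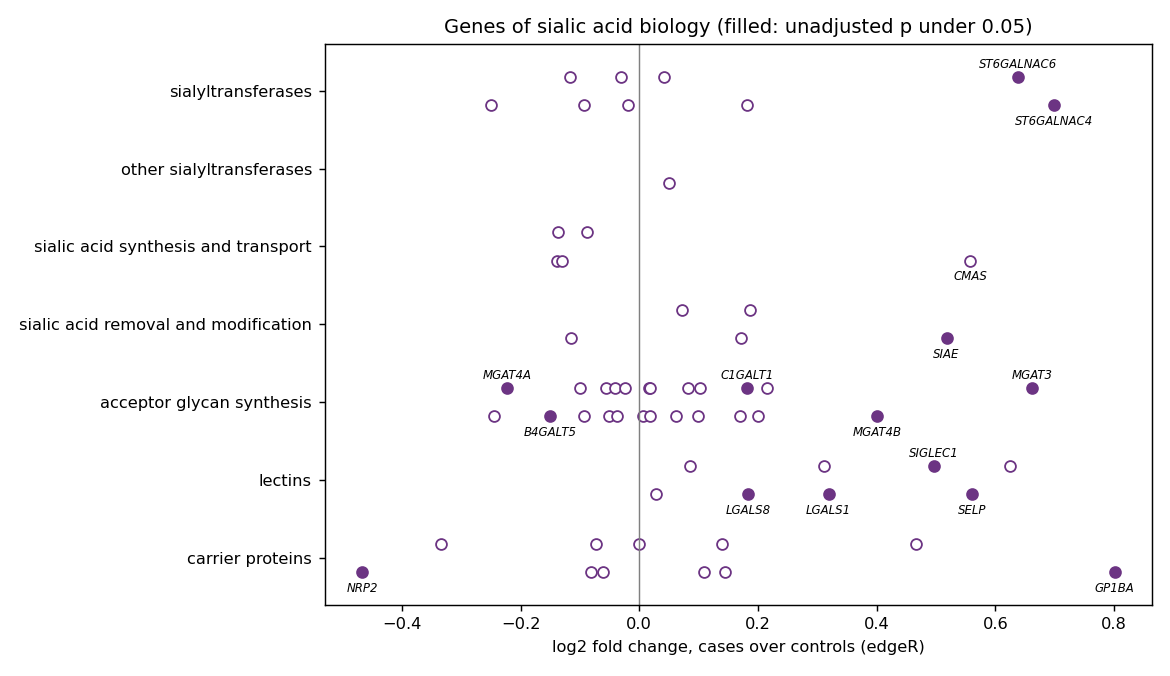
Log2 fold changes of cases over controls for the tested sialyltransferases and for 6 lists of related genes, 1 point per gene, filled where the unadjusted p is under 0.05. The filled points of the sialyltransferases are ST6GALNAC4 and ST6GALNAC6, at 0.70 and 0.64, and all 8 lectins lie above 0.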

How the data were processed

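The authors trimmed the reads with Trimmomatic, checked them with FastQC, aligned them with HISAT2 to Dog10K_Boxer_Tasha and deposited raw counts of read pairs per gene, with both mates mapped. The counting program, annotation and strand setting are not given in the sources used here, so a gene and an overlapping one cannot be told apart. The labels name polyA RNA and an RNeasy kit, the methods rRNA removal and a Tempus kit. CPM, TMM factors and tests were computed here from the deposited counts with edgeR 4.0.16 (filterByExpr by group, glmQLFTest, Benjamini-Hochberg over all genes tested, prior count of 2 on the log2 scale), DESeq2 1.42.0, limma 3.58.1 and R 4.3.3. Standard errors were log2 fold changes over the root of F. Correlations used two-sided permutation tests within groups with 100000 resamples (smallest p 1e-05) in Python 3.11.15, adjusted over 72 pairs of a gene and a score or 36 pairs of genes. Scripts were tested on simulated data. The small RNA split put apart the 10 dogs with the highest mean over 329 small RNA rows.

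Named genes were the 10 sialyltransferases, the 3 genes most like each (1 of which is not reported here), and up to 4 genes per list with the smallest p. Members and lists were chosen with earlier results of these data known, and relations among the sialyltransferases and most values without control_03 were added after seeing the data. The largest correlation between any 2 libraries was 0.98611 and no 2 held identical counts. The depth limits genes of few counts such as ST6GALNAC3. No RefSeq sequence was printed.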

Additional observations from a re-analysis of the deposited data

How the results depend on the processing

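The count of 5 genes called between cases and controls was 89 in DESeq2, 107 in DESeq2 with a small RNA term, 28 without case_01 and control_03, 1 with at least 10 counts in every dog, and 0 in limma-voom, with the platelet score, with the replicate block, and in the dogs of either side of the small RNA split alone. Leaving out 1 dog gave 1 to 154 genes, with 154 without control_03, 23 without case_12 and 12 without case_08. The count of 0 sialyltransferases was 1, ST6GALNAC4, in DESeq2, with the small RNA split in edgeR or DESeq2, and without case_01 and control_03, and 0 to 2 when 1 dog was left out. Small differences changed sign. ST6GAL1 was at -0.0410 with the platelet score and -0.0153 on the high side. ST3GAL2 was at 0.00172 in limma-voom, 0.0156 on the low side, 0.00993 without case_01 and control_03, and -0.0601 to 0.00549 when 1 dog was left out. ST3GAL4 was at 0.0663 with the platelet score, 0.177 on the high side, 0.0113 with the replicate block, and -0.0510 to 0.0257 when 1 dog was left out. ST3GAL5 was at -0.0591 with the platelet score and -0.0124 on the high side. The count of 22 correlations was 4 in cases alone and 17 without control_03. Calls between the sexes were 16 to 18 and calls of the interaction 0 in each of the 4 alternatives run for them. The causes were not tested, other than that fewer dogs or genes entered some fits.

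ST6GALNAC4 and ST6GALNAC6 kept their direction in all 46 alternatives each, as did ST3GAL1, ST3GAL6 and ST8SIA4. The dog numbers shared by 13 cases and controls did not pair the dogs: the correlations of their deviations were -0.437 to 0.263, with 3 of 13 over 0.1. With these numbers as a replicate block, ST6GALNAC4 had a log2 fold change of 0.74 and an edgeR adjusted p of 0.615. With 13 and 18 dogs in 1 library each, the intervals given above set the precision.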
